A study of Mus musculus with 67 samples.

Results

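The elements described here are regions of open chromatin that p2 and pMN neural progenitors (NPs) had in common at day 6 and that p0-1 and p3 NPs held at lower accessibility. They were chosen by a rule on mean VST values, the deposited variance-stabilized counts on a log2 scale, averaged over the samples of each cell type at day 6 with the concentrations of SAG, the Smoothened agonist, pooled. An element was taken if p2 and pMN were each at least 0.75 above both p0-1 and p3, if p2 and pMN were within 0.6 of each other, and if pMN was at least 7, a level that corresponds to 115 normalized counts. The rule found 1131 of 111638 elements (1.01%). Because day 6 values chose them, day 6 differences between cell types and changes from day 5 to day 6 are given as a description, and tests were run on days 3 to 5. Samples of those days carry the same replicate numbers as the day 6 samples, so they may come from the same differentiations.

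Accessibility was measured in 67 samples by CaTS-ATAC, in which fixed cells are tagged with Tn5, stained for intracellular transcription factors and sorted before sequencing. All samples derive from HM1 mouse embryonic stem cells, a single line, taken through basic FGF and the WNT secretion inhibitor LGK, then basic FGF with CHIR99021, SB-431542 and DMH1, to neuromesodermal progenitors (NMPs) at day 3, and from then on through retinoic acid with SAG. NMPs were collected at day 3 (n = 3), and 4 types of NP at days 4, 5 and 6, p0-1 at 0 and 10 nM SAG, p2 at 10 and 100 nM, and pMN and p3 at 100 and 500 nM. At day 5 there were 6 samples each of p0-1 and p2 and 5 each of pMN and p3, and at day 6 there were 5 of p0-1, 6 of p2, 4 of pMN and 4 of p3. Both concentrations of pMN and p3 are the same. Only 10 nM is shared by p0-1 and p2, only 100 nM by p2 and the more ventral types, and none by p0-1 and the latter. For these pairs SAG concentration and cell type cannot be told apart outside the shared concentration. The labels do not say that replicates came from separate cultures, but the paper describes them as biological replicates from independent differentiations.

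Along the dorsal to ventral axis of the neural tube, Sonic hedgehog from the notochord and floor plate divides ventral progenitors into domains that each give rise to particular neurons. The p2 domain gives rise to V2 interneurons and the neighbouring pMN domain to motor neurons, while p0-1 lies above them and p3 below. Progenitors of p2 and pMN both carry the homeodomain factor NKX6.1, and OLIG2 marks pMN. Neurogenesis in these domains is driven by proneural basic helix-loop-helix factors, which bind E-boxes, and V2 interneurons and motor neurons share LIM homeodomain factors such as LHX3.

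The central 300 bases of 6 of the elements are printed first, since letters counted below are read from windows of this kind. They were taken from members nearest to genes of the lists described below that passed all 4 tests at day 5, in order of their day 6 margin, passing over the element nearest Sema6a, which lies on a chromosome whose sequence is not printed here. They are the plus strand of GRCm38, and capitals mark an E-box of the form CAGCTG, the form CATATG or the form CAGATG on either strand.
Epha5, chr5:85182896-85183195: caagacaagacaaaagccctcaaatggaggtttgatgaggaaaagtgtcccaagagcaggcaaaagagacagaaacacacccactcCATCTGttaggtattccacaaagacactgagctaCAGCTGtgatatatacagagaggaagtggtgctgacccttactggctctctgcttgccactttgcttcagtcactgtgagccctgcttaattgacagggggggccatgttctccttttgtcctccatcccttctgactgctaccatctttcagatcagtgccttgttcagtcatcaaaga
Foxn4, chr5:114263981-114264280: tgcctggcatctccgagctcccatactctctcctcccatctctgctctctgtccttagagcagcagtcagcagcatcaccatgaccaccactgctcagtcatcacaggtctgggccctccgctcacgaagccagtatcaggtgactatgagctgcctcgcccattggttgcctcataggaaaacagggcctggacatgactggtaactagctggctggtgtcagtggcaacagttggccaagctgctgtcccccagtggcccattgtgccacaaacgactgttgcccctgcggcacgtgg
Lhx4, chr1:155704080-155704379: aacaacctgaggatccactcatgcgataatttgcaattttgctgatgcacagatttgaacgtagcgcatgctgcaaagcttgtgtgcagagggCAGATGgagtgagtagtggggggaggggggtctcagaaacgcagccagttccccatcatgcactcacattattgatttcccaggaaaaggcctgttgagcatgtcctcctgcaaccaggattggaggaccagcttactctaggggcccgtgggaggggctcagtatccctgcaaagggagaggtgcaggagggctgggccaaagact
Ncam1, chr9:49745015-49745314: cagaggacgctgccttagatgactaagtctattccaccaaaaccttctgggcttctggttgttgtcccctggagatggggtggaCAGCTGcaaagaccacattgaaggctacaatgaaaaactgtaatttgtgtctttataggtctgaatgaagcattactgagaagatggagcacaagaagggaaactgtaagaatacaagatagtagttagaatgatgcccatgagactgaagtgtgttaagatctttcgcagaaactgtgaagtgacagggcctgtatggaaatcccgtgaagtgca
Nkx6-1, chr5:101564912-101565211: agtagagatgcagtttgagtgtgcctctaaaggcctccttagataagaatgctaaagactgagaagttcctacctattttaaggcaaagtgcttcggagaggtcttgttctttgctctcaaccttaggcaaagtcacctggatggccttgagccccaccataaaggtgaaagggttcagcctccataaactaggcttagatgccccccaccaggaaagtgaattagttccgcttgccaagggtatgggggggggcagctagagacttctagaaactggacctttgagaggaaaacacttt
Elavl3, chr9:22035796-22036095: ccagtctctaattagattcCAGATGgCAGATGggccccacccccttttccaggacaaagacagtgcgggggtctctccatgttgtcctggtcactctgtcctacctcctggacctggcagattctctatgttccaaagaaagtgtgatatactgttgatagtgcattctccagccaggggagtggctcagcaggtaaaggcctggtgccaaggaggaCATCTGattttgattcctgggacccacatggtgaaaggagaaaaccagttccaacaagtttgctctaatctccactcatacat
The Elavl3 window holds 3 copies of CAGATG, the Epha5 and Lhx4 windows 1 each, and Epha5 and Ncam1 hold 1 CAGCTG each. None of these forms stands in the Foxn4 and Nkx6-1 windows.

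Reads in elements ranged from 9298160 to 29985325 per sample with a median of 20254011, and the p-values below reflect the spread between samples. At day 6 the element in an intron of Olig2 had a mean VST of 11.2 in pMN and at most 9.99 in the other NP types, the Foxa2 promoter had 10.7 in p3 and at most 8.24 elsewhere, and the element at Dbx1, a p0 gene, had 11.3 in p0-1 and at most 10.1 elsewhere. The p2 cells were sorted as positive for NKX6.1 and PAX6, and the elements used for this check hold none that p2 alone should open. The p2 libraries of replicate 3 were low over the elements described here at both SAG concentrations at day 5 and at 100 nM at day 6, and the counts of p2 against p0-1 and p3 at day 5 are also given without them. In bulk samples such as these, a smaller share of cells with an open element and less opening per cell cannot be told apart.

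The median VST over the 1131 elements rose with time in every NP type, and by day 5 p2 and pMN stood above the flanking types. In the 3 NMP samples it lay between 4.71 and 4.90. At day 4 it averaged 5.60 ± 0.189 (SD, n = 6) in p0-1, 6.06 ± 0.307 (SD, n = 6) in p2, 6.18 ± 0.194 (SD, n = 6) in pMN and 5.40 ± 0.118 (SD, n = 5) in p3. At day 5 the means were 6.09 ± 0.221 (SD, n = 6), 7.32 ± 0.535 (SD, n = 6), 7.59 ± 0.150 (SD, n = 5) and 5.90 ± 0.0824 (SD, n = 5) in the same order. Every p2 and pMN sample of day 5, from 6.59 upwards, was above every p0-1 and p3 sample, of which the highest had 6.38. The p2 samples were also the most spread. At 10 nM SAG the day 5 medians of replicates 1, 2 and 3 were 8.02, 7.85 and 7.04, and at 100 nM they were 7.32, 7.10 and 6.59. Replicate 3 was the lowest of its condition at both concentrations, and at day 6 its 100 nM library was again low, with 7.06 where the other 5 p2 libraries had 7.86 to 8.30. Over the 29163 elements that also had a day 6 VST of at least 7 in pMN but did not meet the rule, here called the other open elements, the sample medians stayed between 8.18 and 8.70 throughout.

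**Figure D1:**
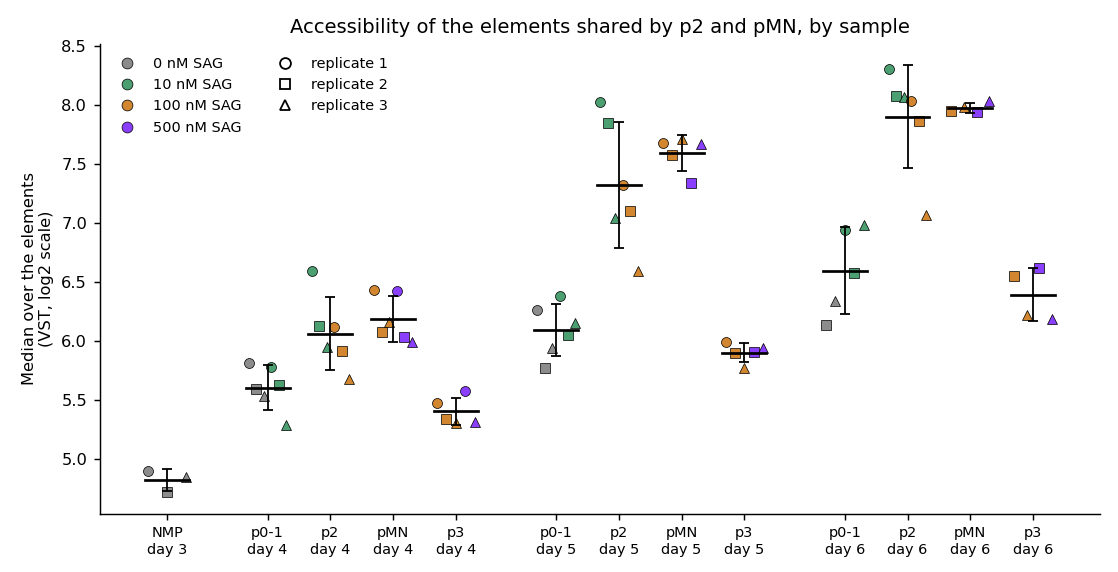
Median VST over the 1131 elements in each sample, by cell type and day; colours give the SAG concentration, symbols the replicate number, and lines with bars the mean and SD over samples. At day 5 all p2 and pMN samples lie at 6.59 or above and all p0-1 and p3 samples at 6.38 or below, and p2 replicate 3 is low at both concentrations.

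At day 6, where the rule was applied, the elements had a median VST over elements of 7.95 in pMN (from the threshold of 7 to 11.8) and 7.88 in p2 (from 6.47 to 11.6), against 6.55 in p0-1 (from 4.13 to 10.5) and 6.37 in p3 (from 3.67 to 10.6). The margin, defined as the lower of p2 and pMN minus the higher of p0-1 and p3, had a median of 1.04 and reached 2.16. In 372 elements p2 was above pMN. The flanking types were unequal in many of them, with p0-1 at least 0.5 above p3 in 335 elements, the reverse in 85 and a smaller gap in 711. Low accessibility in the flanking types was relative, since 381 elements had a VST of at least 7 in p0-1 at day 6 and 300 in p3. The last elements inside the margin were nearest 2210417A02Rik, in an intron of Nedd4l, and nearest Akap6, which had a mean VST of 8.51 in p0-1, 9.32 in p2, 9.26 in pMN and 7.41 in p3, with margins of 0.750981, 0.751038 and 0.751104. The first outside it were nearest 4930463O16Rik, in exon 5 of Nptx2 and nearest Nme5, with 0.749665, 0.749553 and 0.749224. Between the elements on either side of the threshold the margin thus differed by less than 0.01.

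Within p2 at day 6, 97 of the 1131 elements were higher at 100 nM than at 10 nM SAG, and the median difference was -0.51. Within p0-1, 1091 were higher at 10 nM than without SAG, with a median difference of 0.59. In pMN and p3 the differences between 100 and 500 nM had medians of 0.01 each, with 603 and 572 elements higher at 500 nM. Restricting the rule to the shared concentrations, 10 nM for p0-1 against p2 and 100 nM for p2, pMN and p3, left 580 elements, which held 47.3% of the 1131. Without p2 replicate 3, a setting chosen after its low values were seen, the rule took 1316 elements that held 93.7% of the 1131.

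At day 5, which the rule did not use, nearly all of the elements were again more accessible in p2 and pMN than in p0-1 and p3. They were tested by limma on VST values over all 111638 elements, two-sided, and called at a Benjamini-Hochberg adjusted p under 0.01 and a difference of mean VST above 1, which at high counts is a change by a factor of about 2 and at low counts a larger one. Against p0-1, 718 of the 1131 elements were called higher in p2, where 4.13% of all elements were, and 940 in pMN, where 7.92% were. Against p3, 874 were called higher in p2 (12.4% of all elements) and 1036 in pMN (12.1% of all elements). None of the 1131 was called lower in these 4 comparisons, where 0.468%, 3.48%, 8.33% and 8.39% of all elements were, and 1112 to 1129 had an unadjusted p under 0.05 in either direction, as did 33.6% to 55.8% of all elements. The median difference over the elements was 1.20 for p2 and 1.47 for pMN against p0-1, and 1.39 and 1.66 against p3, while the medians over all elements lay between -0.04 and -0.02. Both comparisons against p0-1 share the p0-1 samples, and likewise for p3. All 4 calls were met by 605 of the 1131 elements (53.5%), 3 by 233, 2 by 203, 1 by 43 and none by 47. Of all elements 1.68% met all 4, and of the other open elements 0.953%. The whole rule, applied to day 5 means, was met by 639 of the 1131 and by 1010 of all 111638 elements. A margin above 0 was found in 1130 of the 1131, and in 5763 of the 29163 other open elements. In the limma fits, samples with the same replicate number at different SAG concentrations counted separately. With 1 value per type, day and replicate number, 341 were called higher in p2 than in p0-1, with the median difference still 1.20. The counts were then 953 for pMN against p0-1, and 846 and 1043 for p2 and pMN against p3. For these fits shares of all elements are not given here, and the counts describe only how stable the calls were.

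**Figure D2:**
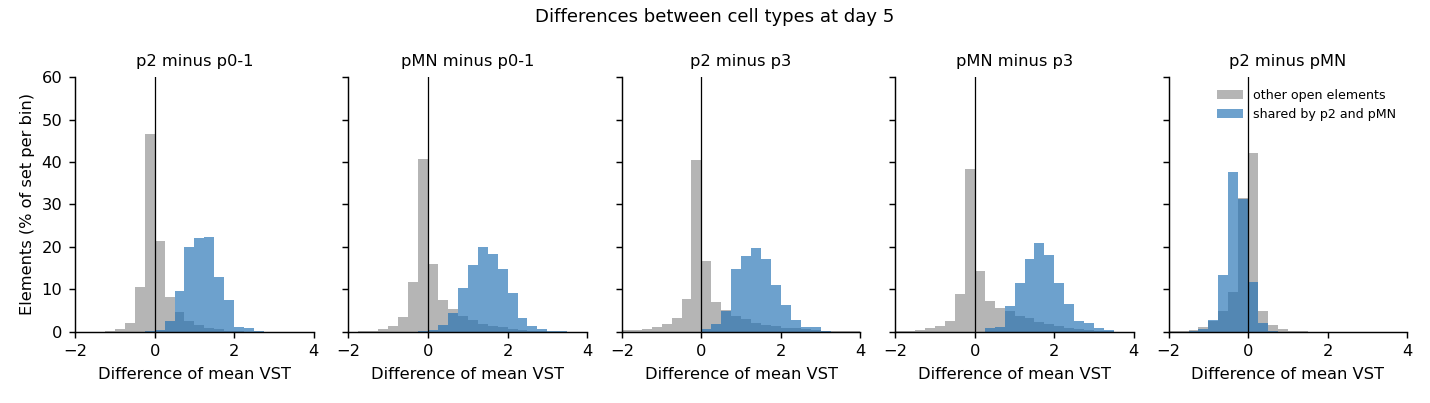
Distribution of differences of mean VST at day 5 over the 1131 elements (blue) and the 29163 other open elements (grey), in percent of each set per bin of 0.25, for 5 pairs of cell types. In the 4 comparisons of p2 or pMN with p0-1 or p3 the blue distribution has medians of 1.20 to 1.66 and the grey one is centered near 0, and for p2 minus pMN the blue median is -0.28.

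The counts that rest on p2 varied with the replicates. Without the replicate 1 samples 118 elements were called higher in p2 than in p0-1, without replicate 2 there were 27, and without replicate 3 there were 868. The median difference over the elements was 1.15, 1.03 and 1.42 in these fits, against 1.20 with all samples. Of 39 elements picked by margin, gene list or day 5 difference and called in this comparison, 34 were not called without replicate 2 and 22 not without replicate 1, while none of them changed direction. With only the p2 libraries of replicate 3 left out, the counts were 897 against p0-1 and 999 against p3, where 6.15% and 13.7% of all elements were called higher. At the shared SAG concentrations alone, 600 were called against p0-1 at 10 nM and 561 against p3 at 100 nM. The corresponding ranges over replicates for pMN were 901 to 961 against p0-1 and 1017 to 1055 against p3. Shares of all elements are not given here for the fits without a replicate number or at shared concentrations. Those counts describe only how stable the calls were. Elements near neuronal genes were also examined. The mean VST of the 4 elements nearest the TSS of Tubb3, Elavl3, Stmn2 and Dcx, none of which met the rule, ranged at day 5 from 8.06 to 8.61 in p0-1, 8.45 to 9.48 in p2, 8.79 to 9.04 in pMN and 8.13 to 8.29 in p3. It was low in the p2 libraries of replicate 3, with 8.63 at 10 nM and 8.45 at 100 nM. Replicate 3 was also the lowest of p0-1, with 8.06 without SAG and 8.19 at 10 nM. In p0-1 the median VST over the elements chosen by the rule was instead lowest in replicate 2. That median was 5.77 and 6.05 there, against 5.94 and 6.15 in replicate 3. In pMN at 100 and 500 nM and p3 at 100 nM the same replicate was lowest by both measures. In p3 at 500 nM the lowest replicate differed. In NMPs the mean over the 4 elements was 8.70 to 8.94, which overlapped the day 5 ranges of p2 and pMN. Whether these elements had a part in the result was not tested.

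Between p2 and pMN at day 5 few of the elements differed. In limma, 3 of the 1131 were called lower in p2, where 1.04% of all elements were, and none higher (0.675% of all elements), and 271 (24.0%) had an unadjusted p under 0.05, where 23.6% of all elements did. The median difference was -0.28. With the replicate number as a block 6 were called, and without p2 replicate 3 the count was 2 and the median -0.04. At 100 nM SAG, the concentration from which both were sorted, 76 (6.72%) were called lower in p2, where 1.42% of all elements were, with a median difference of -0.65. The largest difference was at an intergenic element nearest Cpsf4l (chr11:113717437-113718485), which had 79.9, 106 and 154 normalized counts as the lowest, median and highest of p2, and between 224 and 427 in pMN. The groups did not overlap, and the difference was -1.47 ± 0.18 (SE, adjusted p = 1.39e-04 from limma).

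At day 5 no element was called between 10 and 100 nM SAG within p2 (0% of all elements), although 588 of the 1131 (52.0%) had an unadjusted p under 0.05, where 10.8% of all elements did, and the median difference was -0.65. With the replicate number as a block 121 of them (10.7%) were called lower at 100 nM, where 0.726% of all elements were, and without replicate 3 there were 170 (15.0%), where 0.593% of all elements were. Within pMN, none was called between 100 and 500 nM (0% of all elements), 65 (5.75%) had an unadjusted p under 0.05, where 3.14% of all elements did, and the median difference was -0.16. In the fit with voom on whole reads the count was 0 in both comparisons. The largest decrease within p2 was at an element nearest Eya1, a phosphatase and transcriptional cofactor gene, with a difference of -1.51 ± 0.43 (SE, adjusted p = 0.371 from limma).

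The differences were smaller at day 4 and grew to day 5. At day 4, limma called 11 of the 1131 elements higher in p2 than in p0-1 (0.172% of all elements) and 200 higher in pMN than in p0-1 (3.2%). Of the 11, none was called when any 1 replicate number or the p2 libraries of replicate 3 were left out, or with 1 value per type, day and replicate number. With the replicate number as a block 64 were called (0.453% of all elements), and 561 of the 1131 (49.6%) had an unadjusted p under 0.05 without the block, where 14.2% of all elements did. Against p3, 214 were called higher in p2 (4.97%) and 318 in pMN (5.4%), and 1, nearest Rap2a, was lower in p2 (2.55%). The Rap2a difference, -1.01, was not called in several alternatives. Among them were the block by replicate numbers of the titles (-0.96) and 100 nM SAG alone (-0.78, adjusted p = 0.0828 from limma). Between p2 and pMN 2 were called lower in p2 (0.168%). The median differences were 0.41 and 0.50 against p0-1, and 0.58 and 0.68 against p3. The margin was above 0 in 919 of the 1131 at day 4, where it was in 6232 of the 29163 other open elements. The whole rule was met at day 4 by 53 of the 1131 and by 263 of all elements. The change itself was tested by the contrast of the mean of p2 and pMN minus the mean of p0-1 and p3, at day 5 minus day 4. It was called above 0 in 388 of the 1131 elements, against 1.63% of all elements, and below 0 in none (0.512% of all elements), with 976 (86.3%) at an unadjusted p under 0.05, where 27.0% of all elements were, and a median of 0.84. Without p2 replicate 3 the count was 478, and without the replicate 2 samples it was 175, with medians of 0.91 and 0.78. Shares of all elements are not given here for these fits. The largest increase was at an element in intron 8 of Agps (chr2:75865868-75866357), with lowest, median and highest normalized counts in p2 of 2.54, 4.05 and 6.19 at day 4 and 36.0, 98.8 and 204 at day 5. Its contrast was 2.17 ± 0.23 (SE, adjusted p = 6.06e-08 from limma).

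Over the elements, accessibility was low in most at the NMP stage and rose in part of them by day 4 and in part from day 4 to day 5. In NMPs 619 of the 1131 had a mean VST under 5, which corresponds to 20.3 normalized counts, and 120 had at least 7. From NMPs to day 4, 580 were called higher in p2 (28% of all elements) and 68 lower (20.2%), and 613 were called higher in pMN (28.1%) and 62 lower (20.4%). A rise in both was called in 563 (49.8%, against 25.6% of all elements) and a fall in both in 61 (5.39%, against 19.2%). From day 4 to day 5, 699 rose in p2 (11.3% of all elements) and 786 in pMN (11.2%), with median changes of 1.26 and 1.38. In the same interval 221 rose in p0-1 (10.8%) and 206 in p3 (9.22%), with medians of 0.46 and 0.45. There were 675 elements (59.7%) that rose in both p2 and pMN, where 8.22% of all elements did. Of these 384 were called in neither p0-1 nor p3, 34.0% of the 1131 against 2.17% of all elements, and 126 rose in all 4 types, 11.1% against 3.18%. A rise of both in each interval was called in 297 (26.3%, against 3.52% of all elements). Calls of a fall from day 4 to day 5 were made for 20 elements in p0-1 (3.74% of all elements), 2 in p2 (4.48%), 1 in pMN (4.39%) and 18 in p3 (3.23%). From day 5 to day 6, given as a description, the median changes were 0.55 in p0-1, 0.62 in p2, 0.44 in pMN and 0.50 in p3, with 992, 1047, 1010 and 938 elements higher.

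The course over days differed between elements. At an element in intergenic sequence 279572 bp from the TSS of Gpat3, an acyltransferase of glycerolipid synthesis, normalized counts of 5.40, 14.0 and 19.4 in the 3 NMP samples compared with 1132, 1685 and 1755 as the lowest, median and highest in p2 at day 4, the largest rise from NMPs (6.07 ± 0.18, SE, adjusted p = 2.08e-14 from limma). Here most of the opening was complete at day 4, and p2 at day 5 ranged from 1868 to 2114. The flanking types were open here too, with a day 6 mean VST of 10.2 in p0-1 and 10.3 in p3. In p2 it was 11.1 and in pMN 11.3, and the element passed 1 of the 4 tests at day 5. An element -12833 bp from Gadd45g, a growth arrest gene, went the other way, from 604, 679 and 884 in NMPs to between 38.8 and 79.7 in p2 at day 4 (-3.38 ± 0.19, SE, adjusted p = 5.31e-11), and rose again to between 163 and 529 at day 5 and between 343 and 739 at day 6. At Ptgds, prostaglandin D2 synthase, an element at the transcription termination site (chr2:25465818-25466963) was among the few that fell from day 4 to day 5. Its lowest, median and highest counts went from 405, 471 and 624 to 39.1, 62.8 and 92.6 in p0-1, and from 506, 626 and 785 to 225, 306 and 413 in p2. The change was -2.74 ± 0.18 in p0-1 (SE, adjusted p = 1.58e-08 from limma), -1.02 ± 0.15 in p2 and -0.60 ± 0.13 in pMN, so that at this element the separation of the types at day 5 came with a smaller fall in p2 and pMN.

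Among determinants of p2 and V2 interneurons, the element with the largest day 6 margin lay in intron 2 of Foxn4, a forkhead factor of V2 neurogenesis, at chr5:114263777-114264483, 9631 bp from the TSS. At day 5 the lowest, median and highest normalized counts were 68.3, 81.3 and 117 in p0-1 and 138, 394 and 711 in p2. They were 480, 582, 486, 464 and 487 in the pMN samples and 109, 104, 54.5, 101 and 78.9 in the p3 samples. All p2 and pMN samples were above all others, and the 100 nM library of replicate 3 was the lowest of p2. The differences from p0-1 were 1.98 ± 0.29 for p2 (SE, adjusted p = 4.45e-04 from limma) and 2.35 ± 0.14 for pMN (7.00e-09), and from p3 they were 1.99 ± 0.32 (9.13e-05) and 2.36 ± 0.15 (6.39e-09). Between p2 and pMN the difference was -0.37 ± 0.30 (adjusted p = 0.531). The element rose from day 4 to day 5 by 1.58 ± 0.32 in p2 and 1.93 ± 0.14 in pMN, while in p0-1 the change was 0.35 ± 0.23 (adjusted p = 0.229). The difference of p2 from p0-1 was not called without replicate 1 (1.97, adjusted p = 0.0122) or without replicate 2 (1.64, adjusted p = 0.0325).

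Nkx6-1, which encodes a homeodomain factor of p2, pMN and p3, was the gene nearest to the largest number of these elements, with 5 of its 29. They lay at 8798, 99650, 140408, 144351 and 232438 bp from the TSS on chromosome 5 of mm10. All were on the side of the TSS that holds most of the 29. The most distant of them (chr5:101431512-101433035) was called in all 4 comparisons at day 5 and also at day 4. At day 5 it had 51.5, 100.3 and 144 as the lowest, median and highest normalized counts in p0-1, and 279, 481 and 798 in p2. The pMN samples had 598, 631, 567, 477 and 414, and the p3 samples 216, 194, 171, 195 and 201. Every p2 and pMN sample was above every p3 sample, and p0-1 was the lowest group. Its differences were 2.27 ± 0.26 for p2 (SE, adjusted p = 8.24e-05 from limma) and 2.41 ± 0.21 for pMN against p0-1, and 1.25 ± 0.20 and 1.39 ± 0.12 against p3. The elements at 140408 and 144351 bp were among the most accessible of all 1131, with day 6 mean VST in p2 of 11.2 and 11.6, and both were already open at day 4, from 701 to 1355 and from 1253 to 1931 normalized counts in p2. The element at 140408 bp passed 1 of the 4 tests, with differences of 0.79 to 1.11, and the other 4 elements passed all 4. For the element at 144351 bp the difference of p2 from p3, 1.01, fell under the threshold of 1 in 5 alternatives. At 8798 bp the element fell from day 4 to day 5 in p0-1, by 1.03 on the log2 scale (SE 0.30, adjusted p = 9.89e-03 from limma), and changed by 0.09 ± 0.09 in p2. The Nkx6-1 promoter was no member, with a day 5 margin of -0.11.

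**Figure D3:**
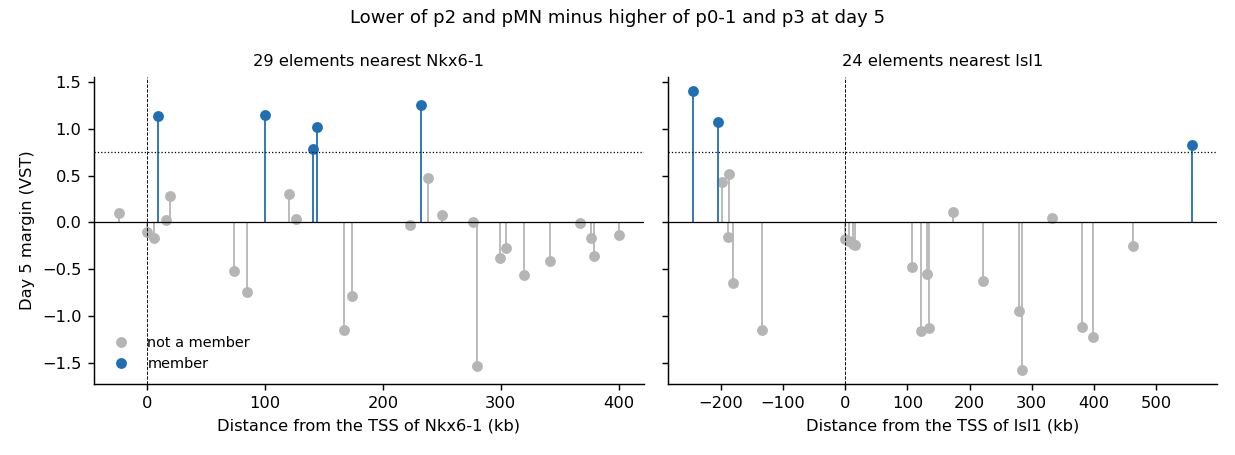
Day 5 margin, the lower of p2 and pMN minus the higher of p0-1 and p3 in mean VST, of the 29 elements nearest Nkx6-1 and the 24 nearest Isl1, by distance from the TSS in kb; blue points meet the day 6 rule and the dotted line is at 0.75. The 5 and 3 blue elements have day 5 margins from 0.79 to 1.40, and most grey elements lie near or below 0.

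Of the genes of motor neurons, Isl1, a LIM homeodomain factor, was nearest to 3 of the elements among its 24, at 558315, -205277 and -245413 bp from the TSS. At the last of these (chr13:116554685-116555518) the day 5 counts had a lowest, median and highest of 15.8, 27.4 and 43.5 in p0-1 and 48.3, 98.7 and 204 in p2. The pMN samples had 171, 164, 172, 135 and 168 and the p3 samples 39.5, 33.1, 16.7, 38.9 and 39.9. No p2 or pMN sample was as low as any of p0-1 or p3, with p2 replicate 3 at 100 nM nearest to them. The differences from p0-1 were 1.57 ± 0.26 for p2 (SE, adjusted p = 8.51e-04 from limma) and 2.14 ± 0.17 for pMN (8.39e-08), and the first was not called without replicate 1 (1.58, adjusted p = 0.0110) or replicate 2 (1.39, adjusted p = 0.0450). An element in intron 5 of Lhx4, a LIM homeodomain factor of motor neurons and V2a interneurons, at chr1:155703670-155704788, had 21.6, 31.0 and 60.7 in p0-1 and 79.0, 167 and 359 in p2. The pMN samples had 220, 222, 220, 167 and 235 counts and the p3 samples 65.5, 48.4, 53.6, 40.9 and 47.4. Again no p2 or pMN sample reached down to the others, and the lowest p2 sample was replicate 3 at 100 nM. It rose from day 4 by 1.80 ± 0.29 in p2, 2.15 ± 0.14 in pMN and 1.09 ± 0.17 in p3, each called by limma, and its differences at day 5 were 1.98 ± 0.30 for p2 against p0-1 (adjusted p = 5.56e-04) and 1.83 ± 0.13 for pMN against p3 (2.11e-08). Without replicate 2 the Lhx4 element was not called for p2 against p0-1 (1.69, adjusted p = 0.0338) or p3 (1.41, adjusted p = 0.0118). The intergenic element at 25456 bp from Lhx3, a factor of both V2a interneurons and motor neurons, passed the tests for pMN alone. Its counts at day 5 ranged from 31.3 to 45.1 in p0-1, 49.8 to 103 in p2, 88.2 to 145 in pMN and 27.4 to 38.7 in p3, and the difference of p2 from p0-1 was 0.70 ± 0.17 (adjusted p = 7.11e-03), under the threshold of 1.

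**Figure D4:**
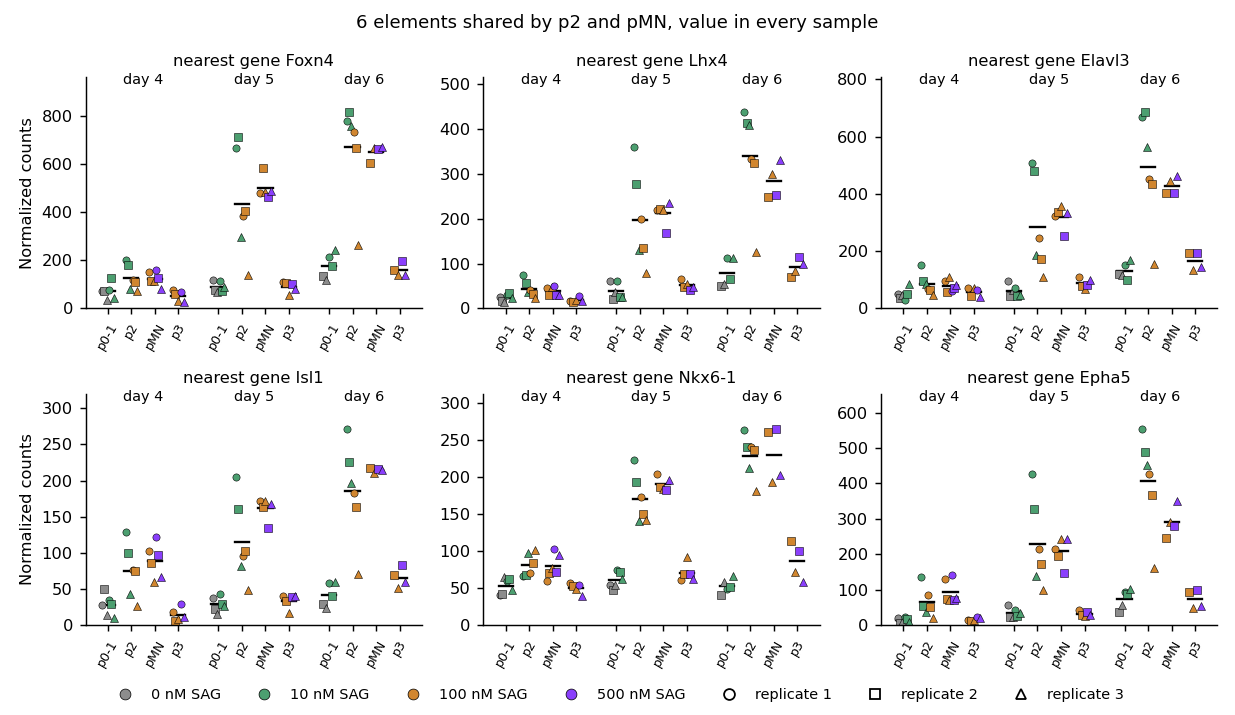
Normalized counts in every sample at 6 of the elements, by cell type and day; colours give the SAG concentration, symbols the replicate number and lines the mean over samples. At days 5 and 6 all p2 and pMN samples lie above p0-1 and p3 in most panels, with the 100 nM p2 library of replicate 3 the lowest of p2 at Foxn4 (138 at day 5 and 262 at day 6).

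Genes of neuronal differentiation were next. Elavl3 encodes an RNA-binding protein of postmitotic neurons, and an element in its intron 3 (chr9:22035237-22036654) had day 5 counts with a lowest, median and highest of 41.7, 55.4 and 95.2 in p0-1 and 111, 216 and 508 in p2. The pMN samples had 321, 336, 356, 255 and 332, and the p3 samples 109, 78.9, 69.5, 80.8 and 99.7. The lowest p2 sample, replicate 3 at 100 nM, was just above the highest p3 sample, and pMN stood clear of both flanking types. The differences were 1.87 ± 0.31 for p2 against p0-1 (SE, adjusted p = 8.02e-04 from limma), 2.22 ± 0.17 for pMN against p0-1, 1.39 ± 0.31 for p2 against p3 and 1.74 ± 0.13 for pMN against p3. At 100 nM alone the difference of p2 from p3 was 0.90 (adjusted p = 0.0177), and without replicate 2 the difference of p2 from p0-1 was 1.58 (adjusted p = 0.0348). At day 4 the groups overlapped, from 30.5 to 83.7 in p0-1 and from 47.3 to 151 in p2. An element in intron 1 of Elavl4, of the same family, ranged at day 5 from 12.4 to 45.1 in p0-1, 57.5 to 242 in p2, 116 to 192 in pMN and 28.2 to 46.6 in p3, and one in intron 6 of Ebf2, a factor of differentiating neurons, from 47.4 to 135, 89.7 to 369, 223 to 307 and 51.0 to 84.3. Both were called in all 4 comparisons, although at Ebf2 the p2 and p0-1 samples overlapped and without replicate 2 the difference of p2 from p0-1 was 1.16 (adjusted p = 0.0789).

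Axon guidance and adhesion genes gave the largest number of listed elements. The one with the largest margin was intergenic, -765663 bp from the TSS of Epha5, a receptor tyrosine kinase for ephrins, at chr5:85182758-85183333. At day 5 it had 21.6, 29.2 and 57.1 as the lowest, median and highest in p0-1, and 98.9, 193 and 427 in p2. The pMN samples had 215, 194, 242, 146 and 242, and the p3 samples 42.2, 26.7, 26.4, 37.0 and 29.1. All p2 and pMN samples were well above the others. The differences of p2 and pMN were 2.30 ± 0.29 and 2.30 ± 0.19 against p0-1 and 2.31 ± 0.28 and 2.31 ± 0.15 against p3 (SE, adjusted p from limma between 1.07e-08 and 1.49e-04). Without replicate 2 the difference of p2 from p0-1 was not called (2.06, adjusted p = 0.0184). An element in intron 1 of Ncam1, a cell adhesion molecule, at chr9:49744284-49746044, was closer to the thresholds. It had 33.0, 81.2 and 186 as the lowest, median and highest in p2, where p0-1 reached 45.5 and p3 37.7, and the p2 samples overlapped both. The difference of p2 from p0-1 was 1.28 ± 0.29 (SE, adjusted p = 6.16e-03 from limma), and was not called without replicate 1 or 2 or in the fit with voom (adjusted p = 0.0130). Ephrin ligand Efnb2 had an element 623114 bp away that was called in all 4 comparisons. Its counts ranged from 90.5 to 442 in p2 and 165 to 259 in pMN, against 34.6 to 74.8 in p0-1 and 34.9 to 68.2 in p3. No p2 or pMN sample was thus as low as any of p0-1 or p3. The difference of p2 from p0-1 was not called without replicate 1 (1.84, adjusted p = 0.0105 from limma) or replicate 2 (1.58, adjusted p = 0.0360).

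Some of the elements lay nearest to genes that mark other domains. An intergenic element -73521 bp from Lhx5, a LIM homeodomain factor of interneurons that arise from p0-1, ranged at day 5 from 14.4 to 53.6 counts in p0-1 and from 36.8 to 259 in p2. It had 151, 177, 152, 144 and 139 in the pMN samples and 16.1, 11.5, 9.67, 16.5 and 9.97 in the p3 samples. It was thus higher in both p2 and pMN than in p3 without overlap, and the p2 samples overlapped p0-1. The difference of p2 from p0-1 was 1.69 ± 0.36 (SE, adjusted p = 4.18e-03 from limma). It was not called without replicate 1 (1.74, adjusted p = 0.0207) or replicate 2 (1.34, adjusted p = 0.0942). An element -310510 bp from Shh, the ligand made by the floor plate, ranged from 24.1 to 48.5 in p0-1, 69.0 to 134 in p2, 85.2 to 132 in pMN and 15.2 to 27.3 in p3, with differences of 1.21 ± 0.18 and 1.35 ± 0.17 against p0-1 and 1.69 ± 0.17 and 1.83 ± 0.15 against p3. Its difference of p2 from p0-1 was not called without replicate 1 (1.17, adjusted p = 0.0136 from limma) or replicate 2 (1.14, adjusted p = 0.0229). The nearest gene is the annotation's label and need not be the gene an element acts on.

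The largest day 6 margins were at elements near genes of no list. The largest, 2.16, belonged to an intergenic element 57993 bp from 4930455J16Rik (chr13:58703877-58704759) that was weak at day 5, with 6.66 to 13.1 counts in p0-1, 18.4 to 85.0 in p2, 25.4 to 61.6 in pMN and 4.87 to 16.6 in p3. No p2 or pMN sample was as low as any of p0-1 or p3, and the difference of p2 from p0-1 was 1.23 ± 0.24 (SE, adjusted p = 2.00e-03 from limma). It was not called without replicate 1 (1.01, adjusted p = 0.0214) or replicate 2 (1.27, adjusted p = 0.0423). The same held at 10 nM alone and with 1 value per type, day and replicate number. Stronger was an element in intron 1 of Ank2, a membrane adaptor of neurons, at chr3:127293517-127295041, whose nearest annotated TSS is that of LOC100862268. It had 33.0, 81.0 and 252 as the lowest, median and highest at day 5 in p0-1 and 344, 542 and 784 in p2. The pMN samples had 704, 625, 949, 360 and 740, and the p3 samples 125, 87.9, 165, 73.0 and 140. All p2 and pMN samples were above all p0-1 and p3 samples. The differences against p0-1 were 2.30 ± 0.33 for p2 (adjusted p = 3.76e-04) and 2.59 ± 0.35 for pMN (2.07e-05). The first was not called without replicate 1 (2.33, adjusted p = 0.0119) or replicate 2 (2.02, adjusted p = 0.0149). In p0-1 the element was higher at 10 nM than without SAG in each replicate, at day 5 from 75.4, 33.0 and 76.6 to 173, 85.4 and 252. Elements in intron 1 of Insc, an adaptor of spindle orientation, and -44473 bp from Wnt11, a WNT ligand, were also among the 6 with the largest of the smallest day 5 differences. At Insc the differences were 2.26 ± 0.31 and 2.69 ± 0.20 against p0-1 and 2.23 ± 0.31 and 2.66 ± 0.17 against p3. At Wnt11 the counts at day 5 were 36.1, 41.7 and 46.5 as the lowest, median and highest in p0-1 and 102, 209 and 461 in p2, with no p2 or pMN sample as low as any of p0-1 or p3. Without replicate 2 the difference of p2 from p0-1 was not called at Insc (1.94, adjusted p = 0.0234) or Wnt11 (2.01, adjusted p = 0.0146). At the other end, an intergenic element nearest Snord14d had a difference of -0.16 ± 0.17 between p2 and p0-1 (adjusted p = 0.557), with 78.3 to 162 counts in p0-1 and 82.5 to 161 in p2, an almost complete overlap.

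The genes nearest to the elements were compared with 10 gene lists, by the share of each list's elements that met the rule, beside 1.01% of all elements. Of 167 elements nearest to genes of pMN and motor neurons 10 met it (5.99%), at Isl1, Lhx3, Lhx4 and Nkx6-1. Of 237 nearest to genes of p2 and V2 interneurons 8 met it (3.38%), at Foxn4, Irx3, Lhx3 and Nkx6-1. Lhx3 and Nkx6-1 are in both lists, and without the elements of Nkx6-1 the shares were 3 of 208 (1.44%) for p2 and V2 and 5 of 138 (3.62%) for pMN and motor neurons. Proneural and neuronal differentiation genes held 9 of 194 (4.64%), among them Dll1, Ebf1, Ebf2, Elavl3, Elavl4 and Neurod4, and axon guidance and adhesion genes 23 of 941 (2.44%), among them Robo1, Robo2, Dcc, Epha3 and Unc5d. Genes of p0-1 held 1 of 132 (0.758%), those of p3 and the floor plate 1 of 133 (0.752%), and hedgehog pathway genes 1 of 128 (0.781%), at Cdon, a co-receptor. Genes of retinoic acid, FGF and WNT signalling held 3 of 367 (0.817%). None of the 111 elements nearest to pan-neural progenitor genes and none of the 154 nearest to NFI, SOX and gliogenic genes met it. The rule itself fixed these counts and no test was run on them. Over all 984 nearest genes, 861 had 1 of the elements, 104 had 2, 15 had 3 and 4 had at least 4. Besides Nkx6-1 these included Magi1, a scaffold protein of cell junctions, with 4 of 41, and Slc39a11, a zinc transporter, with 4 of 19. Of the 8 elements nearest to Magi1 and Slc39a11, 5 passed all 4 tests at day 5.

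The elements lay mostly far from promoters. In the deposited annotation 535 were in introns (47.3%), 525 intergenic (46.4%), 37 in exons (3.27%), 18 at promoters (1.59%) and 16 at transcription termination sites (1.41%). Their median distance from the nearest TSS was 47928 bp, and 8.84% lay within 5 kb, as against 8344 bp and 45.7% for the other open elements, of which 22.9% were at promoters. The median width was 1063 bp, and the median GC content of the central 300 bases was 47.7%, where it was 53.7% in the other open elements and 48.0% in those 15848 of them that lie over 5 kb from a TSS. This last set is the nearer match in position and is used for the sequences.

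The central 300 bases were searched on both strands for the exact letters of 19 short motifs, and the shares are a description. The forms CAGCTG and CATATG read the same on both strands, and matches were counted wherever they stood, overlaps with other motifs included. CAGATG, an E-box form bound by NEUROG and NEUROD factors, stood in 582 of the 1131 windows (51.5%). Its share was 25.7% in the other open elements over 5 kb from a TSS, and 25.7% in all elements. CATATG, another E-box form, stood in 117 (10.3%), against 5.08% and 5.22%. CAGCTG stood in 338 (29.9%), against 22.4% and 21.1%. The 3 E-box forms were thus more frequent than in both backgrounds, CAGATG and CATATG by a larger factor than CAGCTG. The homeodomain core TAATTA was in 9.73%, against 8.52% and 7.85%, and the SOX motif ACAAAG in 34.4%, against 35.0% and 31.1%. For the other motifs the shares are given in the same order, the 1131 elements against the other open elements over 5 kb from a TSS and all elements. A second SOX motif, AACAAT, stood in 21.0%, against 21.0% and 18.4%, and the POU motif TGCAAAT in 6.10%, against 6.26% and 5.65%. The FOX motif TGTTTAC stood in 3.63% (4.01% and 4.96%), the RFX motif GTTGCCA in 3.54% (4.85% and 4.57%) and the TEAD motif GGAATGT in 3.27% (5.58% and 6.84%). The GLI motif GGGTGGT, that of the hedgehog effectors, stood in 5.13% (4.37% and 4.27%), and the IRX motif ACATGT in 8.49% (6.76% and 6.56%). The TEAD motif was thus less frequent than in both backgrounds. The remaining motifs were NFI TTGGCA with 14.7% (15.2% and 14.9%), the nuclear receptor motif AGGTCA with 21.5% (21.2% and 19.8%), NKX2 CACTTGA with 3.89% (4.31% and 4.11%), CTCF AGGGGGC with 7.07% (6.61% and 6.68%), AP-1 TGACTCA with 6.01% (5.02% and 6.15%), PAX6 TTCACGC with 0.884% (1.08% and 1.00%) and ONECUT ATCGAT with 1.24% (1.03% and 0.892%). In 1061 elements with p2, pMN and p3 above p0-1 by the same day 6 thresholds, the ventral set, CAGATG stood in 43.5%, CAGCTG in 32.0% and CATATG in 5.66%. In 3857 with p0-1, p2 and pMN above p3, the p0-to-pMN set, the shares were 28.1%, 19.1% and 6.51%. The share with CAGCTG was thus at least as high in the ventral set as in the 1131 elements.

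CAGATG was most frequent at the centers of the elements. Per 50-bp bin, the share of the 1131 elements with a match fell from at most 13.2% within 100 bp of the center to 6.01% at 450 to 500 bp, whereas in the other open elements over 5 kb from a TSS it stayed between 4.08% and 5.28%. The ventral set had a central rise too, with a match in 127 of its 1061 elements in the bin from 0 to 50 bp, and in 6.13% and 5.84% in the outermost bins. Elements with more copies also changed more from day 4 to day 5. The median change in pMN was 1.29 in the 549 without CAGATG, 1.38 in the 393 with 1 copy and 1.83 in the 189 with at least 2, and in p2 it was 1.13, 1.26 and 1.50. The share called in all 4 comparisons at day 5 was 49.5%, 53.4% and 65.1%. Elements of one sample are not replicates, and no test was run over them. The split by copies was made for the 1131 elements only. Whether it is particular to them was not tested.

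**Figure D5:**
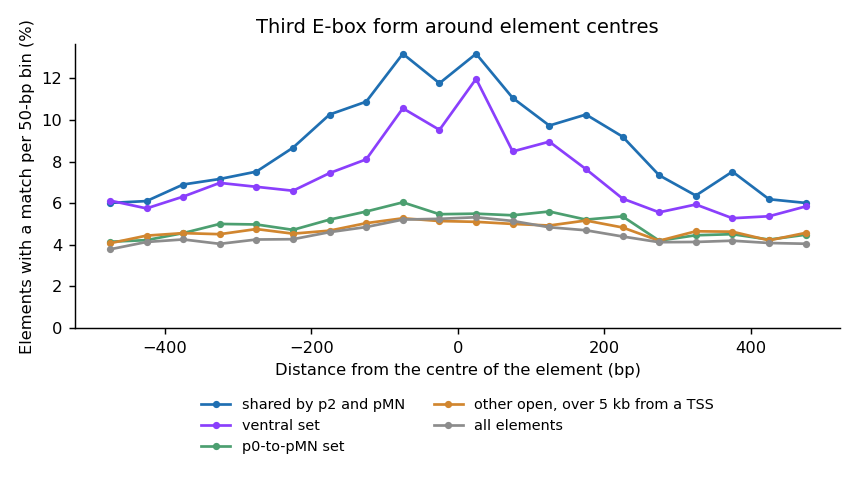
Percent of elements with a CAGATG match in each 50-bp bin, by distance from the center in bp, for the 1131 elements, the ventral and p0-to-pMN sets, the other open elements over 5 kb from a TSS, and all elements. The blue curve of the 1131 elements rises to 13.2% near the center, and that of the other open elements stays between 4.08% and 5.28%.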

How the data were processed

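The authors mapped the CaTS-ATAC reads to mm10 with the nf-core/atacseq pipeline, called peaks with MACS, merged those found in at least 2 replicates and counted reads per element, and deposited log2-scale variance-stabilized (VST) values from DESeq2. The versions the authors used for DESeq2 and MACS are not given in the sources used here. The VST values were inverted to normalized counts. Samples were grouped by the labels' day, cell type and SAG concentration. Members, gene lists and the rule for named elements (the largest margins, listed genes, genes with at least 4 members, the largest day 5 differences, neighbours of the threshold, and extremes per comparison) were chosen with earlier results of these data known. Comparisons used limma 3.58.1 in R 4.3.3 with a variance trend on VST, only the groups compared and no filter, over all 111638 elements, called at adjusted p under 0.01 and a difference above 1. Depth was 9298160 to 29985325 reads per sample. The pattern over days was 1 fit over 8 groups. Replicate numbers were checked for pairing by correlating deviations from group means: at day 5, 71 of 71 same-number pairs exceeded 0.1 (lowest 0.103), at day 4, 70 of 77, and at day 6, 55 of 59. Where titles and descriptions gave different numbers (15 samples), those of the titles were used. Nearest genes, classes and TSS distances are the deposited annotation's, and sequences are from GRCm38. Fits were tested on simulated data. Alternatives covered filters, scaling, blocks, voom, SAG and left-out replicates.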

Additional observations from a re-analysis of the deposited data

Results flagged for a closer look

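Of 116 groups of 4 to 10 samples examined, 11 held a sample far from the others by Dixon's criterion, where chance gives about 1 in 20. The p2 library of replicate 3 at 100 nM SAG at day 6 accounts for 5 of them. Its median VST over the 1131 elements was 7.06, where the next p2 library had 7.86. Its normalized counts were 262 at Foxn4 (next 668), 126 at Lhx4 (next 325), 599 at the Nkx6-1 element 232438 bp from the TSS (next 949) and 179 at Ptgds (next 269). The pMN library of replicate 2 at 500 nM at day 5 was low at Lhx4, with 167 (next 220), and at the Isl1 element at -245413 bp, with 135 (next 164). At Foxn4 the highest pMN sample of day 5 had 582 (next 487) and the lowest of day 6 had 606 (next 663). In p3 at day 5 the highest sample had 91.5 at the Nkx6-1 element at 99650 bp (next 68.8) and 16.6 at the element nearest 4930455J16Rik (next 7.18). The contrast of p2 and pMN against p0-1 and p3 differed between day 4 and day 5 in 388 of the 1131 elements, by the test of that difference. The causes were not tested.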

How the results depend on the processing

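Directions of called differences held: across the alternatives, 0 of the comparisons of named elements called in the main fit reversed. Comparisons of named elements that were not called in the main fit changed sign in 59 alternative fits. Leaving out each replicate number in turn gave 964 to 1232 elements by the rule. It gave, for called elements at day 5, 27 to 868 in p2 against p0-1, 901 to 961 in pMN against p0-1, 614 to 994 in p2 against p3, 1017 to 1055 in pMN against p3 and 1 to 2 in p2 against pMN. At day 4 the ranges in the same order were 0 to 0, 116 to 187, 162 to 193, 292 to 335 and 0 to 2. They were 525 to 643 and 569 to 645 from NMPs to p2 and pMN, 196 to 216, 518 to 775, 741 to 817 and 185 to 236 from day 4 to day 5 in p0-1, p2, pMN and p3, 0 to 170 for SAG within p2, 0 to 0 within pMN and 175 to 423 for the contrast between days. The cause was not tested.

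A margin of 1 gave 628 elements, a margin of 0.5 gave 1763 and shared SAG concentrations 580. Without p2 replicate 3, an alternative chosen after seeing the data, p2 against p0-1 gave 897 at day 5 and 0 at day 4, and the contrast 478. Keeping means above 100 normalized counts, with fewer elements tested, gave at day 5 373 and 527 for p2 and pMN against p0-1 and 487 and 612 against p3. At day 4 it gave 3 and 74, 64 and 113, and 0 for p2 against pMN, from NMPs 155 and 177, from day 4 to day 5 35, 330, 411 and 26, and 82 for the contrast. With 1 value per type, day and number, and thus fewer values, p2 against p0-1 and pMN gave 341 and 1 at day 5 and 0 and 0 at day 4, and pMN against p0-1 114 at day 4. At shared SAG concentrations p2 against p3 and pMN gave 561 and 76 at day 5 and 67 and 0 at day 4, and p2 against p0-1 0 at day 4. The replicate block, by numbers of titles, gave 6 for p2 against pMN at day 5, and by either numbering 64 for p2 against p0-1 at day 4 and 121 for SAG within p2, and moved no other count by over 1.5 times. With voom, p2 against pMN gave 6 at day 5 and 4 at day 4, and p0-1 and p3 from day 4 to day 5 gave 338 and 323. With no variance trend p2 against pMN gave 1 and 1 on these days, with median centring 6 at day 5. A fold above 2 in normalized counts gave 5 for p2 against pMN at day 4, and 346 and 320 for p0-1 and p3. Other counts, 177 of them, stayed within 1.5 times.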
